A study of Mus musculus with 6 samples.

Results

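Sialyltransferases are Golgi enzymes that add sialic acid, a charged sugar, to the ends of the glycan chains of glycoproteins and glycolipids. The RNA of 9 of them was followed here, chosen by gene symbol as members of the St3gal, St6gal and St6galnac families. All 9 were found among the 45808 rows of the count table, and all 9 passed the filter on low counts. They were proposed with results of the same wild-type and knockout libraries in view. Their differences between genotypes are therefore given as a description with no p-value.

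The libraries were made from T cells purified from the spleen of mice with a C57BL/6 strain background, with the age given as 2M, and activated in culture with antibodies to CD3 and CD28 together with IL-2. The control group was wild type (3 libraries) and the other group had the genotype Drp1-/- (3 libraries, called KO here). Drp1 is the dynamin-related protein that divides mitochondria. The labels name no Cre line and no flox allele, so the cells in which the gene was deleted are not known from them. Whether the replicates of a group are different mice or cultures is not stated, so the p-values below reflect variation among libraries that could be technical alone.

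The total count was 24738017 to 34730475 per library. Dnm1l, the gene of Drp1, stood at 116.6 to 123.1 CPM (counts scaled to the library size, with TMM factors) across wild-type libraries and at 92.6 to 100.6 across KO libraries. Counts by gene do not show which exons were read. Whether these reads came from exons that a deletion may leave was not tested. The log2 fold change of Dnm1l was -0.32 ± 0.05 (SE, n = 3 libraries per group, edgeR adjusted p = 0.000728). Wild-type replicate 1 stood apart from its group, with a score of -44.9 on the first principal component where replicates 2 and 3 had -20.9 and -20.2. Xist had 0 to 3 counts per wild-type library and 12950 to 16862 per KO library, while Y-linked Ddx3y was read in all 6 (2163 to 3604 counts). The labels give no sex, so genotype and the sex make-up of the libraries cannot be told apart. T cell markers were present throughout. The summed level of 11 of them was 4022 to 4142 CPM across wild-type and 3722 to 3771 across KO libraries, with none at 0. At an edgeR adjusted p under 0.05, 7 were lower in KO, 1 was higher and 3 did not pass. Of all 14209 genes tested, 26.1% were lower and 26.7% higher at that threshold.

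The enzymes are grouped by the sugar they act on. St6gal1 adds sialic acid in the 6-linkage to the galactose that ends N-glycan branches (N-acetyllactosamine), and the product is the ligand of the B cell lectin CD22. St3gal3, St3gal4 and St3gal6 use the same galactose but make the 3-linkage, and St3gal4 and St3gal6 are known for building selectin ligands on leukocytes. St3gal1 and St3gal2 make the 3-linkage on core 1 O-glycans (galactose on N-acetylgalactosamine, GalNAc). The St6galnac enzymes add a further sialic acid to the GalNAc itself. In T cells the sialylation of core 1 by St3gal1 is known to change during activation and to affect the survival of CD8 cells.

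The 3 promoter windows below are shown for a gene that was lower in KO, a gene that was higher and a gene that differed by under 10%. Each spans 250 bases before to 50 after a RefSeq start (GRCm38.p6), read 5′ to 3′ on the gene's strand. Capitals mark matches to the GC box, GGGCGG or its reverse complement CCGCCC.
St6gal1 (chr16:23224490-23224789, plus strand): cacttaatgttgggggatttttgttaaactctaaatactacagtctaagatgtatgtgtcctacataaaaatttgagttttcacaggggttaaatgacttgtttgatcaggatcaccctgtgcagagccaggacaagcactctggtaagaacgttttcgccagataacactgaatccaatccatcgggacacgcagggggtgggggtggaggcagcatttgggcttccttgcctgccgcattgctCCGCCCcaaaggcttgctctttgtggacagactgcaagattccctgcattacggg
St6galnac4 (chr2:32586828-32587127, plus strand): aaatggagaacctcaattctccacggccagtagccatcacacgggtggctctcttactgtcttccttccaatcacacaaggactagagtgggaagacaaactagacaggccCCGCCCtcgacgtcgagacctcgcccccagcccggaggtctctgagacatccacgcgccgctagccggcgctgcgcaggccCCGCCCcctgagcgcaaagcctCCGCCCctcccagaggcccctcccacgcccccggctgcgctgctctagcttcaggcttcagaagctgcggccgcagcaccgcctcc
St3gal4 (chr9:35116815-35117114, minus strand): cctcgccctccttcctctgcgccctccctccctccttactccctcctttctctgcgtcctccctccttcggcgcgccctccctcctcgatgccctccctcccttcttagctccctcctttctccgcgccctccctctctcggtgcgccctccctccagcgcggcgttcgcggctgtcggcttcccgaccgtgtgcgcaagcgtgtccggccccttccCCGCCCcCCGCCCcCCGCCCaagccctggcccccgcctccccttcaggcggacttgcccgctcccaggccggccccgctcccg
The table of promoters held 7 of the 9 genes, with 10 starts in all, and St6gal1 had 3 of them. Gene counts do not show which start was used. The GC box was found in 6 of the 10 windows, beside 35.6% of all 32817 windows of that length. St6gal1 had 1 match in the window printed and none in its other windows, and St6galnac4 and St3gal4 had 3 each. St3gal6, lower in KO, had 5 matches in one of its windows, and St6galnac6, level between genotypes, had 0. The E-box CACGTG, its own reverse complement, which Myc and Max bind, was found in 1 window, that of St6galnac3, beside 7.15% of all windows. No match of one motif overlapped a match of the other in these windows (0 of 10). A match describes the letters of the window and is not evidence of binding.

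Per length of transcript, 3 genes dominated in wild-type cells. St3gal4 stood highest, at 37.0 ± 1.88 CPM per kilobase of exon (SD, n = 3), followed by St6gal1 at 27.4 ± 1.81 and St3gal1 at 22.0 ± 0.489. St6galnac6 (7.88 ± 0.251), St6galnac4 (5.88 ± 1.07), St3gal3 (4.08 ± 0.281), St3gal2 (2.52 ± 0.496) and St3gal6 (1.55 ± 0.152) followed, and St6galnac3 was near the floor at 0.0606 ± 0.0182. The libraries of neighbouring genes in this order did not overlap in wild type. In KO cells St3gal4 was still highest (34.0 ± 0.887), but the order below it was St3gal1 (14.2 ± 0.843), St6gal1 (10.8 ± 0.656) and St6galnac4 (9.54 ± 0.642). The KO libraries of St6gal1 (10.1 to 11.4) and St6galnac4 (9.07 to 10.3) overlapped, as did those of St3gal2 (4.01 to 4.16) and St3gal3 (3.68 to 4.06). With the longest coding transcript as the length instead of all exons, St3gal4 led in both groups. In KO, however, St6galnac4 (17.1) stood beside St3gal1 (16.9) with overlapping libraries, and St6galnac4 and St6galnac6 (15.1) stood above St6gal1 (11.8). The KO order below St3gal4 thus depends on the length used.

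**Figure D1:**
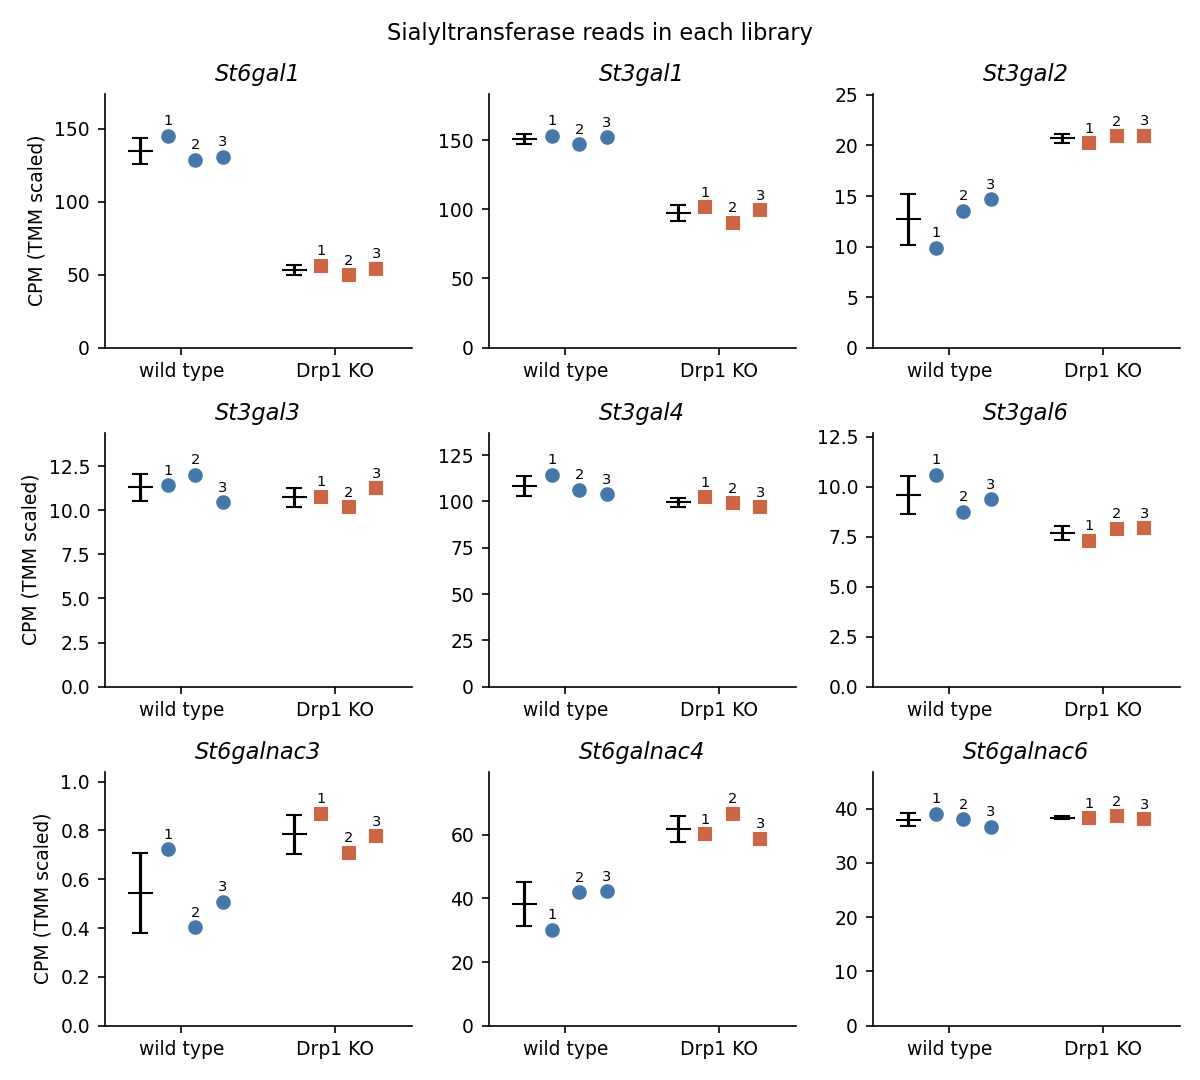
CPM scaled by TMM factors (y axis, from 0) of each of the 9 genes by genotype (x axis); points are libraries numbered by replicate, and the bar beside them is the mean and SD of 3 libraries. St6gal1 and St3gal1 have all KO libraries below all wild-type libraries, and St3gal2 and St6galnac4 have them above.

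Among the 9 genes the difference between genotypes was largest for St6gal1 (chromosome 16, 23224740 to 23360350, mm10). It stood at 145.1, 128.8 and 130.9 CPM in wild-type replicates 1, 2 and 3 and at 56.0, 49.7 and 54.1 CPM in KO replicates 1, 2 and 3. Every KO library was far below every wild-type library, with a gap larger than the spread within either group. The mean went from 135 ± 8.91 to 53.3 ± 3.22 CPM (SD, n = 3 each), a log2 fold change of -1.34 ± 0.07 (SE), or a change of -60.5%. Without wild-type replicate 1, its highest library, the log2 fold change was -1.29.

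B cells carry much St6gal1, and B cell transcripts were present in these cultures. The 14 B cell markers summed to 628 to 657 CPM across wild-type and 569 to 605 across KO libraries, with none at 0. Of these markers 2 were higher in KO and 3 lower, beside 26.7% and 26.1% of all tested genes, and 9 did not pass. Cd4, the helper T cell coreceptor, was lower in KO (log2 -0.36 ± 0.05, edgeR adjusted p = 0.000227), and the 3 CD4 T cell markers summed to 546 to 563 CPM (wild type) and 415 to 459 (KO). The 3 CD8 T cell markers summed to 801 to 833 CPM and 725 to 732, Cd8b1 and Runx3 being lower and Cd8a, at 362 to 378 and 352 to 365, not passing. Gamma-delta T cell markers were higher for all 5 measured, beside 26.7% of all tested genes. Their summed level was 42.1 to 48.8 CPM for wild type against 99.8 to 119 for KO. The part of these cells in the St6gal1 difference was not tested, and in bulk RNA fewer cells of a type and less RNA per cell cannot be told apart.

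The genes of the 3-linkage on the same galactose differed much less. St3gal4 (chromosome 9, 35046576 to 35119268) was at 114, 106 and 104 CPM in wild-type replicates 1 to 3 and 102, 99.2 and 97.0 CPM in KO. All KO libraries were below all wild-type libraries, but by a margin smaller than the spread within the wild-type group, and the log2 fold change was -0.12 ± 0.05. With library totals alone as the scaling it was -0.04. St3gal6 (chromosome 16, 58468125 to 58524243) was at 10.6, 8.76 and 9.39 CPM in wild type and 7.30, 7.90 and 7.92 CPM in KO (log2 -0.31 ± 0.10). Every KO library was below every wild-type library. St3gal3 (chromosome 4, 117932154 to 118134914) was at 10.5 to 12.01 CPM (wild type) and 10.2 to 11.2 (KO), with overlapping groups (log2 -0.07 ± 0.09).

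Within a library, the ratio of St6gal1 to St3gal4 counts does not depend on how libraries are scaled. It was 1.27, 1.21 and 1.26 in wild type and 0.548, 0.502 and 0.558 in KO. Wild-type cells thus had more St6gal1 than St3gal4 reads in each library, and KO cells fewer. Summed per kilobase, the 3-linkage genes St3gal3, St3gal4 and St3gal6 went from 42.6 ± 2.12 to 39.1 ± 0.784 CPM per kilobase, against 27.4 ± 1.81 to 10.8 ± 0.656 for St6gal1.

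**Figure D2:**
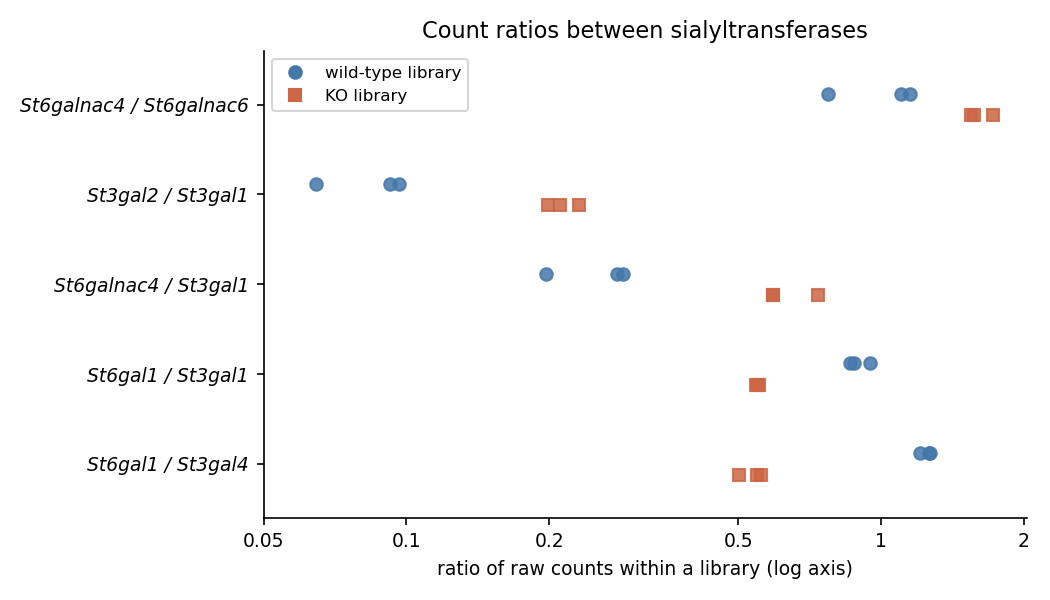
Ratio of raw counts of 2 genes within each library (x axis, log scale) for 5 pairs (y axis); circles are wild-type and squares KO libraries. St6gal1 over St3gal4 lies at 1.21 to 1.27 in wild type and 0.502 to 0.558 in KO.

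The core 1 enzymes moved in opposite directions. St3gal1 (chromosome 15, 67102875 to 67176830) was at 153, 147 and 152 CPM in wild-type replicates 1 to 3 and 101, 90.4 and 99.2 CPM in KO. The groups were well apart, with means of 151 ± 3.35 and 97.0 ± 5.78 CPM (log2 -0.64 ± 0.05, a change of -35.6%). St3gal2 (chromosome 8, 110919922 to 110972480), which acts on core 1 and on gangliosides, was at 9.88, 13.6 and 14.7 CPM in wild type and 20.2, 20.9 and 20.9 CPM in KO. Its means were 12.7 ± 2.503 and 20.7 ± 0.419 CPM (log2 0.69 ± 0.12, 61.6% higher). Wild-type replicate 1 was its lowest library, and without it the log2 fold change was 0.55. Reads of St3gal2 per read of St3gal1 were 0.0646, 0.0923 and 0.0963 in wild type and 0.199, 0.231 and 0.211 in KO. St3gal1 remained the larger of the pair in all 6 libraries, and their summed level per kilobase went from 24.5 ± 0.540 to 18.3 ± 0.794.

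Among the enzymes that act on GalNAc, St6galnac4 was higher in KO and its neighbour St6galnac6 was level. St6galnac4, which makes disialylated core 1, lies on chromosome 2 (32587095 to 32599698), and St6galnac6, which also acts on gangliosides, follows on the same strand (32599709 to 32620806) with 10 bases between the annotated genes. St6galnac4 was at 30.1, 42.0 and 42.3 CPM in wild-type replicates 1 to 3 and 60.1, 66.6 and 58.8 CPM in KO. Replicate 1 was again the lowest wild-type library, and all KO libraries lay above the group. The log2 fold change was 0.69 ± 0.11, or 61.3% higher, and 0.55 without that replicate. St6galnac6 was at 36.6 to 39.0 CPM for wild type and 38.0 to 38.6 for KO (log2 0.02 ± 0.05). The ratio of St6galnac4 to St6galnac6 counts was 0.772, 1.10 and 1.15 in wild type and 1.57, 1.72 and 1.55 in KO, with every KO library above every wild-type library.

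St6galnac3 (chromosome 3, 153198266 to 153725174) was read only 12 to 17 times per wild-type library and 22 to 31 times per KO library. Its CPM groups overlapped at 0.403 to 0.724 in wild type and 0.709 to 0.868 in KO (log2 0.56 ± 0.26). At this depth the difference was not clear of the spread, and without wild-type replicate 1, the highest of its group, the log2 fold change was 0.78.

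Reads of St3gal1 outnumbered those of St6galnac4, whose enzyme acts after it on core 1, in every library. The ratio of St6galnac4 to St3gal1 counts was 0.197, 0.286 and 0.278 in wild type and 0.593, 0.736 and 0.593 in KO. The St6galnac genes together went from 13.8 ± 0.859 to 17.6 ± 0.695 CPM per kilobase.

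Of the 9 genes, 5 lay past an edgeR adjusted p of 0.05, St3gal2 and St6galnac4 higher and St6gal1, St3gal1 and St3gal6 lower. Of all 14209 genes tested 52.9% did so, 26.7% higher and 26.1% lower. The KO and wild-type libraries did not overlap in CPM for 6 of the 9 genes, beside 63.3% of all tested genes. The median log2 fold change was -0.07 over the 9 genes and 0.01 over all tested genes. St3gal6 did not pass that threshold with library totals as the scaling or when any 1 KO replicate was left out. Since the genes were chosen with this contrast in view, nothing is read from these shares. Summed over the 9 genes the level was 497 to 514 CPM per wild-type library and 384 to 397 per KO library.

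**Figure D3:**
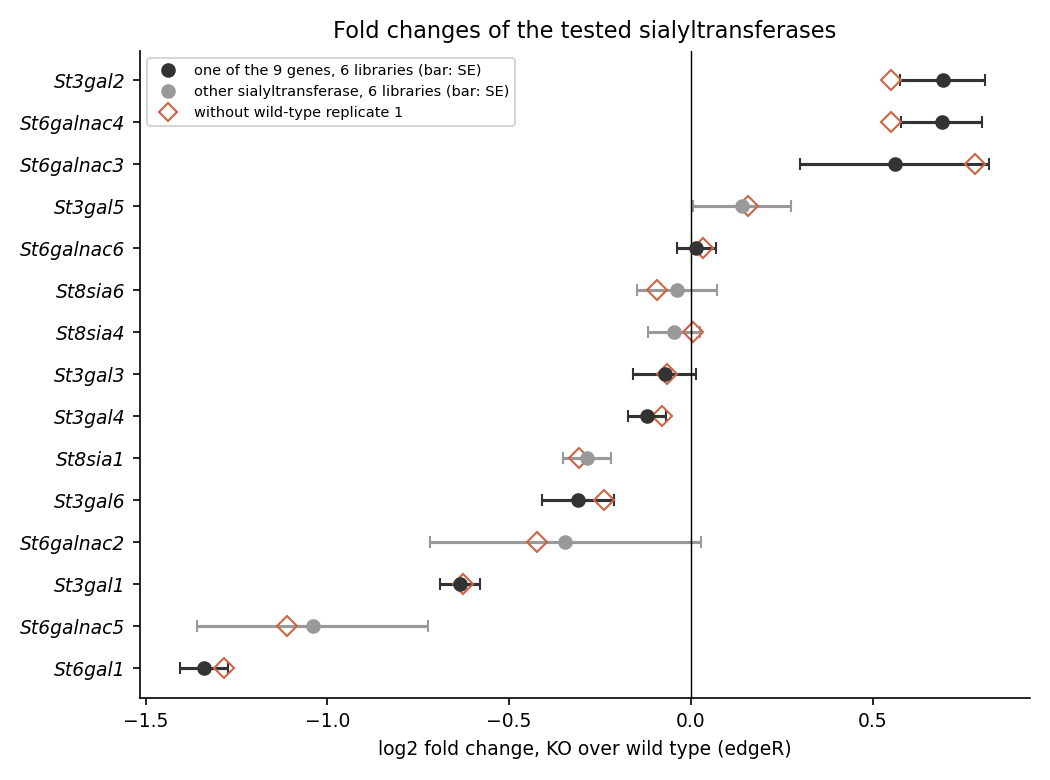
Log2 fold change of KO over wild type (x axis) for the 15 tested sialyltransferase genes (y axis); dots and bars are the edgeR estimate and SE from 6 libraries, and diamonds the estimate without wild-type replicate 1. St6gal1 lies lowest at -1.34 and St3gal2 highest at 0.69.

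The make-up of the sialyltransferase RNA differed accordingly. As a share of the 9 genes' summed CPM per kilobase, St6gal1 went from 25.3% ± 1.06 in wild type to 12.6% ± 0.608 in KO (SD, n = 3 each). St3gal4 went from 34.1% ± 0.854 to 39.6% ± 0.608, St3gal1 from 20.3% ± 0.436 to 16.5% ± 0.781 and St6galnac4 from 5.45% ± 1.11 to 11.1% ± 0.866. The larger share of St3gal4 came with a level that was not higher, since the sum went from 108 ± 2.77 to 85.8 ± 1.51 CPM per kilobase. These shares and the sums per kilobase use all exons as the length and depend on that choice. By the longest coding transcript St6gal1 stood at 29.9 (wild type) and 11.8 (KO), and St6galnac4 at 10.5 and 17.1 CPM per kilobase.

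**Figure D4:**
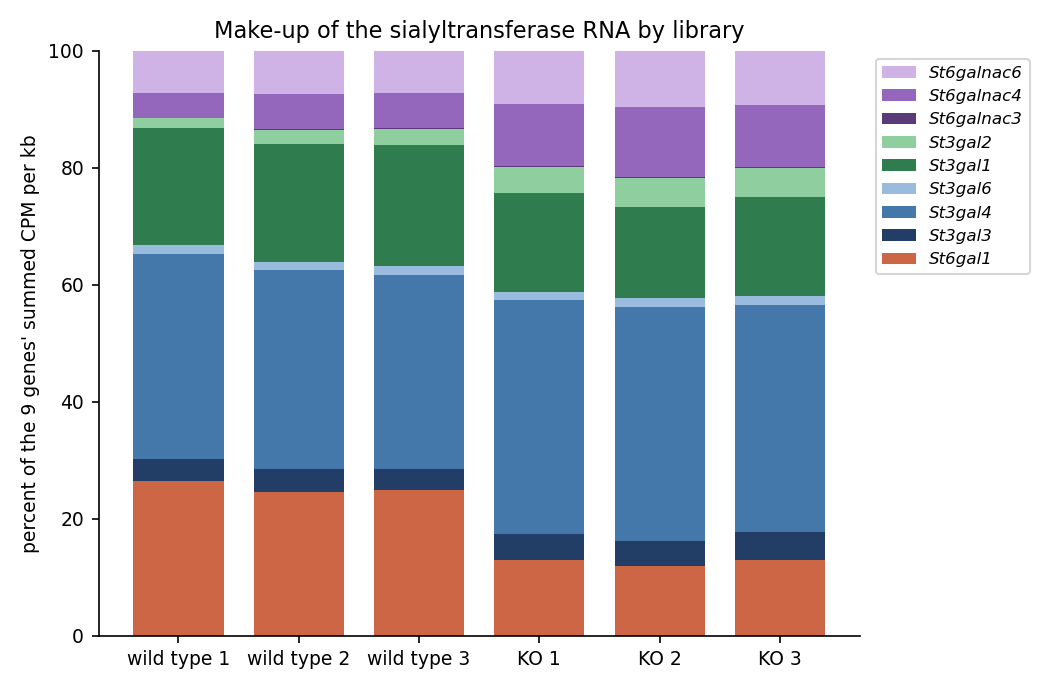
Share of each gene (colour) in the summed CPM per kilobase of the 9 genes (y axis, percent) in each library (x axis). St6gal1 takes 25.3% on average in wild type and 12.6% in KO.

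The other 11 sialyltransferases are set beside these. They are the rest of the family, so the choice of the 9 also decided which genes are in this set. St6gal2, St6galnac1 and St8sia3 had 0 counts in all 6 libraries, where 3 counts correspond to 0.0840 to 0.128 CPM, and St8sia2 and St8sia5 had 1 and 2 counts in a single KO library each. Of the 6 that were tested, 2 were lower in KO, 0 were higher and 4 missed the threshold. The 33.3% that passed compare with 52.9% of all genes in either direction, 26.1% lower and 26.7% higher. St8sia1, the enzyme that makes the ganglioside GD3, fell from 39.7 ± 1.76 to 32.5 ± 2.12 CPM (log2 -0.29 ± 0.06, edgeR adjusted p = 0.00419). St6galnac5, a ganglioside enzyme, fell from 9 to 15 counts per wild-type library to 6 to 8 per KO library (log2 -1.04 ± 0.32, edgeR adjusted p = 0.0186). Its exons overlap those of Pigk on the opposite strand, which had 705 to 1620 counts and was higher in KO (log2 0.53). The St6galnac5 call was lost with DESeq2 (adjusted p = 0.122) and without wild-type replicate 3 (edgeR 0.0645), KO replicate 1 (0.0642) or KO replicate 3 (0.0557). St8sia4, a polysialic acid synthase, had a log2 fold change of -0.05 ± 0.07 and was 0.0063 without wild-type replicate 1. St3gal5, which makes the ganglioside GM3, had 0.14 ± 0.14, St8sia6 had -0.04 ± 0.11 and St6galnac2 had -0.35 ± 0.37 (edgeR adjusted p = 0.408, 0.794 and 0.458). St8sia6 was 0.046 without wild-type replicate 3 and 0.014 without KO replicate 2, and St6galnac2 was 0.091 without wild-type replicate 2. Exons of St6galnac2 overlap 1810032O08Rik on the opposite strand, with 675 to 953 counts and lower in KO (log2 -0.48). The median over the 6 was -0.17.

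Around the sialyltransferases, 7 lists of 103 glycan genes were examined: the supply and removal of sialic acid, the building of O-glycans and N-glycans, selectin ligand modification, carrier glycoproteins and lectins. Of 88 tested, 25 rose and 25 fell, and the other 38 missed the threshold. The share past the threshold was 56.8%, beside 52.9% of all genes (26.7% higher and 26.1% lower). Those shares of all genes also stand beside the counts given for each list below. The lists were chosen with earlier results of these data known, so nothing is read from the share or from those counts. With library totals alone as the scaling, the 50 genes that passed were 31 higher and 19 lower, while over all genes the share of higher among those passing went from 50.6% to 62.0%.

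In the supply of sialic acid 2 of 11 genes rose and 3 fell, 6 missing the threshold (median log2 fold change -0.02). Gne, the rate-limiting enzyme of sialic acid synthesis, rose from 34.9 ± 3.04 to 43.1 ± 1.31 CPM (log2 0.30 ± 0.07, edgeR adjusted p = 0.00419). Cmah, which turns the acetyl into the glycolyl form of sialic acid, fell from 74.7 ± 1.66 to 61.7 ± 1.97 CPM (log2 -0.28 ± 0.05). Gfpt1, at the entry of the hexosamine pathway, fell by 0.17 on the log2 scale (edgeR adjusted p = 0.01004), and did not pass with library totals as the scaling (0.0902) or without KO replicate 2 (0.0532). Cmas, which activates sialic acid to its CMP form, and the Golgi transporter Slc35a1 of that donor did not pass (log2 0.07 ± 0.05 and -0.09 ± 0.05).

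Among genes for sialic acid removal and recycling 1 of 7 rose and 2 fell, 4 missing the threshold (median -0.08). Neu1, the lysosomal sialidase, fell from 62.7 ± 4.28 to 47.5 ± 2.85 CPM (log2 -0.40 ± 0.07, edgeR adjusted p = 0.000745). Ctsa, the protease that protects Neu1 in the lysosome, fell from 86.8 ± 5.40 to 62.2 ± 2.58 CPM (log2 -0.48 ± 0.06). Casd1, which acetylates sialic acid, had a log2 fold change of 0.09 ± 0.07 and did not pass. Npl, a sialic acid lyase at under 2 CPM in each library, rose (log2 1.56 ± 0.32) and was named after its value was seen.

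The O-glycan list was divided, with 4 of 13 higher, 4 lower and 5 not passing (median 0.06). Galnt6, which starts O-glycans by adding GalNAc to protein, fell from 307 ± 30.6 to 176 ± 11.4 CPM (log2 -0.80 ± 0.07, edgeR adjusted p = 4.375e-05), and Galnt10 of the same family fell by 0.46 ± 0.07. Gcnt1, the branching enzyme that makes core 2 and competes with St3gal1 for core 1, rose from 5.62 ± 0.995 to 10.9 ± 1.15 CPM (log2 0.94 ± 0.13, edgeR adjusted p = 0.000307). Without wild-type replicate 1 the log2 fold changes of Galnt6 and Gcnt1 were -0.71 and 0.82. C1galt1, which makes core 1, did not pass (log2 -0.13 ± 0.06).

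Of 19 N-glycan genes 6 rose and 4 fell, 9 missing the threshold (median 0.10). B4galt1, which adds the galactose that St6gal1 and St3gal4 then sialylate, fell from 215 ± 30.2 to 129 ± 6.71 CPM (log2 -0.74 ± 0.09, edgeR adjusted p = 0.0001298). Slc35a2, the transporter of the galactose donor, fell by 0.54 ± 0.07 on the log2 scale. Mgat5, which adds a branch to complex N-glycans, rose from 36.4 ± 0.686 to 49.4 ± 0.976 CPM (log2 0.44 ± 0.05, edgeR adjusted p = 0.0001134). B4galt1 was highest in wild-type replicate 1, at 250 CPM, and its log2 fold change without that library was -0.62.

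Of 10 genes for fucosylation and sulfation, 5 rose and 1 fell, beside 26.7% and 26.1% of all tested genes. The other 4 missed the threshold (median 0.31 over the 10). Fut8, which adds the core fucose of N-glycans, rose from 12.4 ± 0.344 to 18.6 ± 1.17 CPM (log2 0.59 ± 0.08, edgeR adjusted p = 0.0001763). The tyrosine sulfotransferases were divided, Tpst1 rising (log2 0.44 ± 0.09) and Tpst2 falling (log2 -0.26 ± 0.06). Fut7, which completes selectin ligands together with St3gal4 and St3gal6, was at 9.55 ± 2.39 CPM in wild type and 12.7 ± 0.968 in KO, did not pass (edgeR adjusted p = 0.0507) and was named after its value was seen.

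Carriers of sialic acid on T cells had 5 of 18 genes higher, 8 lower and 5 not passing (median -0.07). Cd24a, a small heavily glycosylated surface protein, fell from 24.3 ± 5.12 to 10.03 ± 0.336 CPM (log2 -1.27 ± 0.13, edgeR adjusted p = 6.904e-05). Emb, embigin, a glycoprotein partner of lactate transporters, fell by 0.37 ± 0.05 on the log2 scale, and Cd4 is given above. Among sialic acid binding lectins and galectins 2 of 10 rose and 3 fell, 5 missing the threshold (median 0.04). The galectins Lgals3 (log2 -0.67 ± 0.06, edgeR adjusted p = 4.16e-05) and Lgals8 (log2 -0.38 ± 0.06) fell, and Lgals1, whose binding sialic acid in the 6-linkage blocks, rose from 577 ± 23.9 to 697 ± 28.9 CPM (log2 0.27 ± 0.05, edgeR adjusted p = 0.001085).

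**Figure D5:**
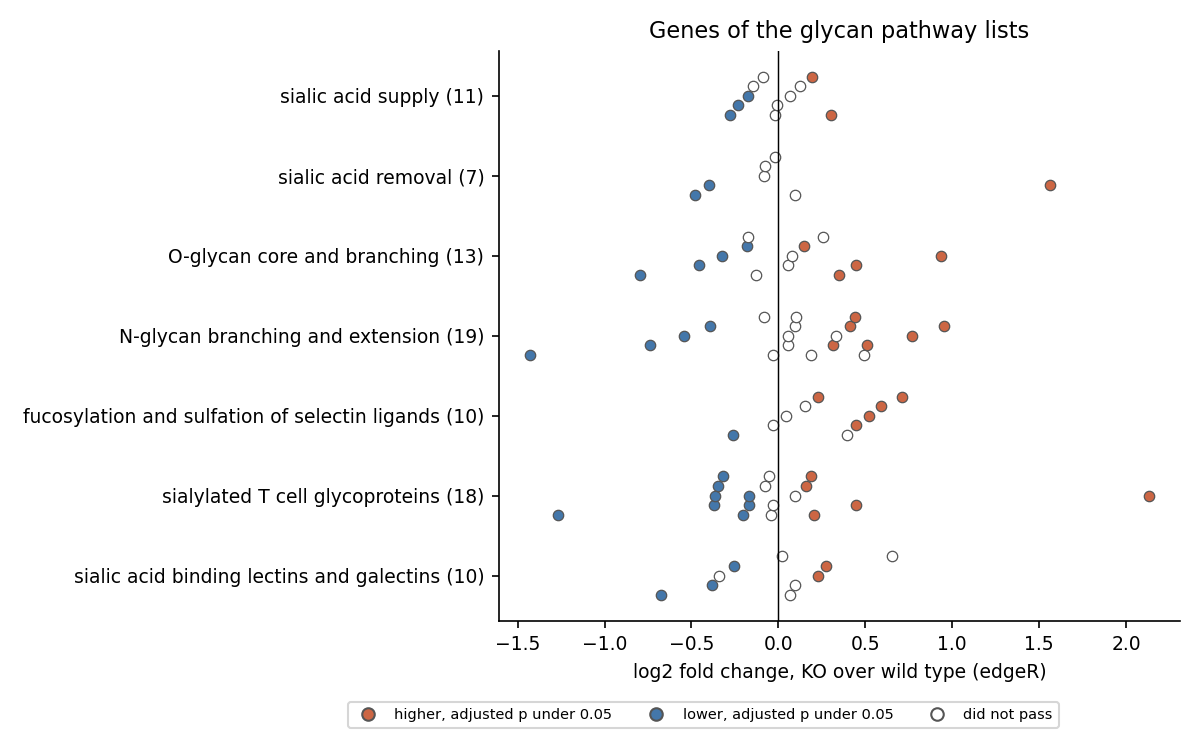
Log2 fold change of KO over wild type (x axis) of each tested gene in 7 glycan lists (y axis, number tested in brackets, vertical offset for legibility only); filled dots passed an edgeR adjusted p of 0.05 and open dots did not. Higher and lower genes occur in each list, and 50 of 88 genes in all passed.

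The level of a gene over 6 libraries in 2 groups can be matched by many others, so likeness is given only as a description. The genes whose log2 CPM followed St6gal1 most closely were Afg3l2, a mitochondrial inner membrane protease (Pearson r = 0.9998), Selenbp1 (0.9998) and Slc2a3, a glucose transporter (0.9995). Of 10167 genes whose higher group averaged at least 5 CPM, 1702 had an r of at least 0.95 with St6gal1. For St3gal2 the closest were Rmnd5b (0.9988), Ric8 (0.9985) and Ppp2r1b (0.9983), among 1585 genes at that limit. Among the 9 genes, St6gal1 was closest to St3gal1 (r = 0.995) and St3gal2 to St6galnac4 (r = 0.988). These libraries share the same genotype split, so the correlations carry no test.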

How the data were processed

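RNA was measured in 6 libraries of activated mouse spleen T cells, prepared with a stranded mRNA kit per the labels' protocols. The authors deposited raw read counts by gene symbol for all libraries in 1 table. Tools listed in the submitters' processing notes, without roles, are STAR 2.5.2, HTSeq 0.6.1, Cufflinks, FastQC and DESeq2 1.12, with the mm10 genome. The strand setting of the counting, the annotation release and the handling of multiply matching reads were not given in the sources used here. Exons of St6gal1, St3gal4 and St3gal6 overlap genes of the opposite strand (BC106179 with 4 to 10 counts per library, 4930581F22Rik with 292 to 558 and Dcbld2 with 74 to 145, beside 1543 to 4125, 2685 to 3650 and 245 to 296 of their own). St6galnac2 and St6galnac5 have such neighbours too. Reads in these overlaps were not measured, and without the strand setting the values of these genes are uncertain by that share.

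The whole table was fitted with edgeR 4.0.16 in R 4.3.3: TMM factors (0.949 to 1.03), the filterByExpr filter (14209 genes kept), and its quasi-likelihood test for the genotype term, Benjamini-Hochberg adjusted, all 2-sided, passing at an adjusted p under 0.05. Symbols turned into dates by a spreadsheet (27 rows, 0.241% of counts) stayed in the totals. Each SE of a log2 fold change was the absolute log2 fold change divided by the square root of the test's F statistic. CPM values use the TMM factors. Lengths are the merged exons of GENCODE for the same build. Promoter windows are from RefSeq (GRCm38.p6). Counting error alone limits a gene with 0 counts to 3 counts per library.

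The 9 genes, the lists and the tests were chosen with earlier results of these data known. Named genes were Dnm1l, the 9, the other sialyltransferases tested, the 3 genes with the smallest adjusted p at 5 CPM or more in each glycan list, and the 3 genes most like each of the 2 with the largest fold changes. Further list members named beside these (Cmas, Slc35a1, Npl, C1galt1, Fut7, Cd8a, Cd8b1, Runx3) were named after their values were seen. Alternatives were DESeq2 size factors, upper quartile factors and library totals as scaling, DESeq2 1.42.0, limma-voom (limma 3.58.1), other filters, a replicate block, each library left out and an adjusted p under 0.01. The procedure was tested on simulated data in which few genes differed. In the data 52.9% of tested genes passed, so the simulation does not show how scaling and error rates hold with so many differences. Figures were drawn with matplotlib 3.10.9.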

Additional observations from a re-analysis of the deposited data

How the results depend on the processing

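Of the fold changes of the 9 genes under alternative settings, 122 moved by less than the spread between replicates and 3 by more. The 3 were St3gal1 (-0.56), St3gal4 (-0.044) and St6galnac6 (0.091), all with library totals alone as the scaling, which raised the median of all genes by about 0.07 on the log2 scale. The number of the 9 past the threshold was 4 to 6, from which nothing is read, since they were chosen with this contrast in view. Of the other sialyltransferases 1 instead of 2 passed with DESeq2 and at an adjusted p under 0.01, and 1 to 2 with a library left out. With at least 1 CPM in 3 libraries 1 passed as well, but that filter removed St6galnac5, which was not tested there. With library totals alone, St8sia4 was 0.030 and St8sia6 was 0.036 in place of values below 0. With a library left out St8sia4 was 0.0063, St8sia6 was 0.046 and 0.014, and St6galnac2 was 0.091, none past the threshold, the other ends of their ranges being -0.11, -0.092 and -0.62. Over all genes 7513 passed, and 5369 to 7900 under the alternatives, and over the glycan lists 50 and 37 to 53. With the replicate number as a block 7900 genes and 6 of the 9 passed, St3gal4 being added. Same-numbered libraries deviated together with r of 0.174, 0.125 and 0.0112, and wild-type replicate 3 correlated best with KO replicate 2, so the numbers were not taken to pair the samples. Depth limits St6galnac3, St6galnac2 and St6galnac5, which had under 35 counts per library.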

Other observations

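St6gal1 and St3gal6 lie on chromosome 16, as does the targeted gene Dnm1l, with starts 6.91 and 42.2 Mb from that of Dnm1l. Of 140 tested genes within 10 Mb of Dnm1l, 51 were higher in KO (36.4%) and 21 lower (15.0%), beside 26.7% and 26.1% of all tested genes. This window holds St6gal1 but not St3gal6. Of 406 tested genes on all of chromosome 16 without Dnm1l, 32.0% were higher and 22.9% lower. The window was chosen after the positions were seen, and the part of position in the level of either gene was not tested.

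Markers of mast cells and basophils and of megakaryocytes and platelets were at low levels, apart from Kit. Cpa3, a mast cell protease, was at 0.508 to 0.940 CPM (wild type) and 2.63 to 3.80 (KO), while Kit was at 53.4 to 61.1 and 24.0 to 25.5 CPM. The mast cell and basophil markers summed to 55.2 to 63.2 CPM (wild type) and 31.1 to 34.0 (KO), most of it Kit. Of 6 tested, 4 were higher and 1 (Kit) was lower, beside 26.7% and 26.1% of all tested genes, and 1 did not pass. The 7 megakaryocyte and platelet markers summed to 7.58 to 10.1 CPM (wild type) and 20.5 to 24.2 (KO). Of these markers 4 of the 4 tested were higher, beside 26.7% of all tested genes. Myeloid markers summed to 5.45 to 6.44 and 5.09 to 5.99 CPM, with Fcgr1, S100a8 and S100a9 at 0. The 6 markers of NK cells summed to 7.55 to 8.26 and 9.86 to 11.4 CPM, and 7 erythroid markers to 0.553 to 1.21 and 1.71 to 2.57 CPM. The part of these cells in the levels of the sialyltransferases was not tested.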
